A study of Mus musculus with 20 samples.

Results

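The comparison of any treatment with water set 14 arrays of splenic natural killer (NK) cells from treated mice against 5 arrays from mice given water, 19 of the 20 arrays in the series. The treated arrays were 4 of ptaquiloside, 5 of selenium and 5 of ptaquiloside with selenium, grouped by their labels. The array of ptaquiloside mouse 4 was left out for its dim signal, and with it kept 1 of the 5 genes described below, Spint1, is called. NK cells are cytotoxic lymphocytes of innate immunity. All mice were male C57BL/6, were dosed by gavage every day for 14 days, and were given 5.3 mg/kg of ptaquiloside, 1.3 mg/kg of selenium, the 2 compounds together at these doses, or only water. Ptaquiloside, a glucoside made by bracken fern, is a carcinogen, and selenium is an essential trace element that selenoproteins carry. The NK cells were left untouched while the remaining spleen cells were held back magnetically, so cells that escaped removal also gave RNA, and in such an isolate fewer cells of a type and less RNA per cell cannot be told apart. Each array was 1 mouse of 1 experiment.

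Pooling the treatments asks what mice given ptaquiloside, selenium or both had in common against mice given water. One of the routes by which cells answer foreign chemicals is the aryl hydrocarbon receptor (AhR), a transcription factor that binds a ligand, pairs with ARNT and switches on genes through the core motif GCGTG. Its targets include enzymes of the Cyp1 family and the feedback genes that damp it, Ahrr and Tiparp. Lymphocytes carry the receptor, and NK cell functions are known to be sensitive to it.

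The 75th percentile of the processed signal was 45.5 to 133 scanner units on the 19 arrays used, and it was 10.5 on the array left out. Of the non-control spots, 51.7% to 60.8% were well above background on the arrays used, against 36.3% on the one left out. The 19 arrays correlated with each other at 0.900 to 0.991 across probes, and the array left out correlated with them at 0.458 to 0.663. Each of 5 slides held 1 mouse of every group, so the slide entered the fit as a block. The control array always lay in position 1 of its slide, so treatment and position on the slide cannot be told apart. Transcripts that mark NK cells were bright in both groups: Gzma had a mean of 6.33 ± 0.43 (SD, n = 5) in controls and 6.57 ± 0.28 (SD, n = 14) in treated mice, and Klrb1c had 4.29 ± 0.44 and 4.43 ± 0.34. Values here and below are log2 signals relative to the 75th percentile of the same array, so 0 is the percentile itself, and differences are in log2 units.

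Treated mice had higher transcript levels of 5 genes in a fit over 17203 genes, each read by its brightest probe. Spint1, which encodes a Kunitz-type inhibitor of the proteases matriptase and hepatocyte growth factor activator, rose by 2.21 ± 0.30 (SE), a 4.62-fold difference. Ahrr, the repressor that competes with AhR for ARNT, rose by 1.79 ± 0.27, and Gsdme, the pore-forming gasdermin E that caspase-3 activates, rose by 1.28 ± 0.19. Ccno, a cyclin of centriole amplification in multiciliated cells, rose by 1.03 ± 0.14. Dnah2, a heavy chain of the axonemal dynein motor, rose by 0.95 ± 0.14 on its brightest probe but not on its others. These 5 were all the genes past an adjusted p of 0.05 in limma with Benjamini-Hochberg adjustment, 0.0291% of the genes tested, and 0 genes fell past it.

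The count rested on the slide as a block and on the control arrays. Without the block limma called 0 genes, with a lowest adjusted p of 0.384, and 144 genes lay under an unadjusted p of 0.05. With it, 318 genes (1.85%) lay under that unadjusted p, 171 higher (0.994%) and 147 lower (0.855%), fewer than the 5% that the threshold allows when nothing differs. Leaving out control 2, 3, 4 or 5 left 0 calls, and leaving out control 1, or mouse 4 of the combined treatment, left 2. The share of higher genes among those under that unadjusted p turned with the processing, which also changed the genes counted. It was 53.8% of 318 here and 63.8% of 282 with median centring. With another background correction (normexp) it was 81.0% of 252, and with no scaling between arrays 5.19% of 347.

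**Figure D1:**
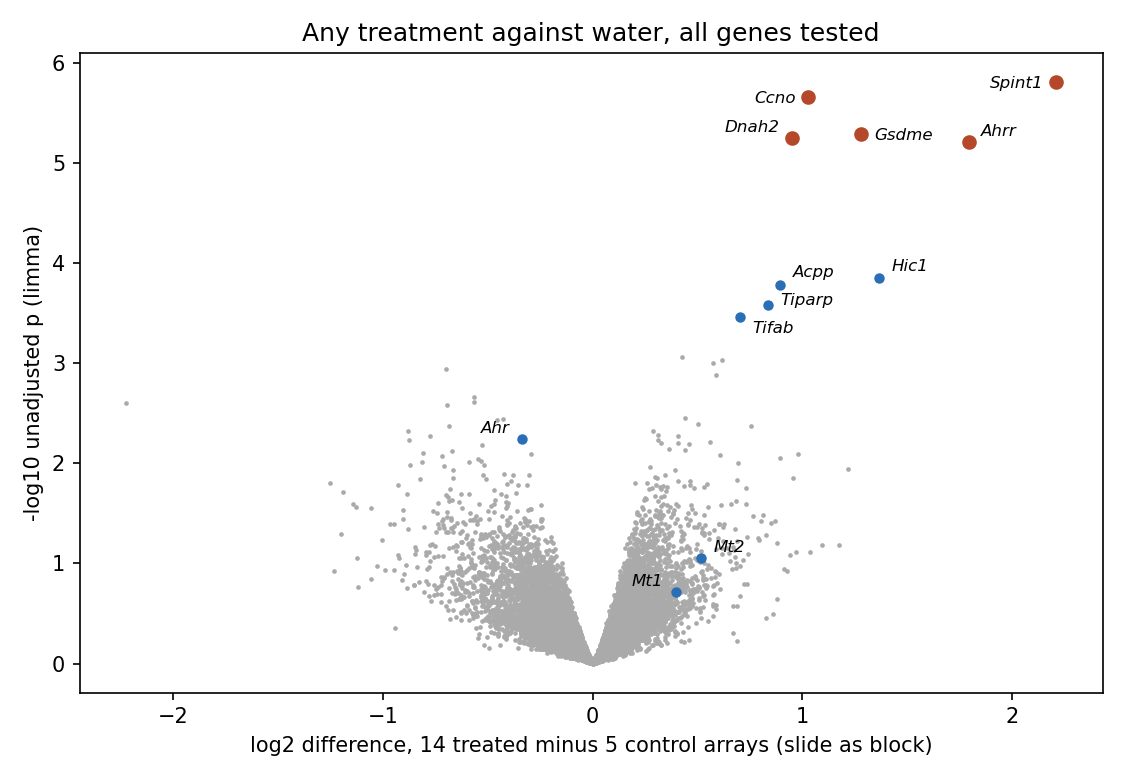
Each of the 17203 genes by its log2 difference between 14 treated and 5 control arrays (horizontal axis) and the negative log10 of its unadjusted p (vertical axis). The 5 genes past the threshold, drawn in orange, lie to the right between 0.95 and 2.21, while blue points mark other genes named in the text, among them Ahr at -0.33 and Mt1 at 0.40.

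Since the repressor of AhR was among the 5, the 250 bases before the transcription start of the 5 genes are shown with the core motif in capitals, GCGTG on the strand of the gene or CACGC where it lies on the other strand. The windows are RefSeq's, in build GRCm38.p6, and read 5′ to 3′ on the gene's own strand. Dnah2 is shown as the one with no match.
Ahrr (chr13:74292332-74292581, minus strand): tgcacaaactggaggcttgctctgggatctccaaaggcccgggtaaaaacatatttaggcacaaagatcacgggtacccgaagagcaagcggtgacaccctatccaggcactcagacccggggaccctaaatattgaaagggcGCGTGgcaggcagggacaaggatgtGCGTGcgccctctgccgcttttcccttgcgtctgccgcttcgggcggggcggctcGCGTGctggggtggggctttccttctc
Spint1 (chr2:119237110-119237359, plus strand): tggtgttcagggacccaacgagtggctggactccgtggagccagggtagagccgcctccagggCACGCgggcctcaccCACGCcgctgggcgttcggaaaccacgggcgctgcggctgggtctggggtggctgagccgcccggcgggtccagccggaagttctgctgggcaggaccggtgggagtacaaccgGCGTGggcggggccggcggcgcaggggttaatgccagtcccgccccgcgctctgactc
Ccno (chr13:112987552-112987801, plus strand): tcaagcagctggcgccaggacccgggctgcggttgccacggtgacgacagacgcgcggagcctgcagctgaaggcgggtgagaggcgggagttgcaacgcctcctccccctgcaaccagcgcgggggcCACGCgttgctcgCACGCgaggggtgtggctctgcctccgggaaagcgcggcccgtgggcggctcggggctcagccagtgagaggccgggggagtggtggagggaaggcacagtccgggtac
Gsdme (chr6:50261770-50262019, minus strand): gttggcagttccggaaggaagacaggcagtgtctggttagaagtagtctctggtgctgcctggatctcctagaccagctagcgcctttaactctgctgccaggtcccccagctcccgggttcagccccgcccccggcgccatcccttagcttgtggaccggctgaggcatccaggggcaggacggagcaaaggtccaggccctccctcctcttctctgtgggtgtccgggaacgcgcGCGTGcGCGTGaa
Dnah2 (chr11:69549109-69549358, minus strand): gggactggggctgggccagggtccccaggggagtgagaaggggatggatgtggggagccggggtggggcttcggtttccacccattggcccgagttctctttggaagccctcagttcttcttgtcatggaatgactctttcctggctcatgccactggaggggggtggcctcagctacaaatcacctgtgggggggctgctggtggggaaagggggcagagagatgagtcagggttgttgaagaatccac
Ahrr held 3 matches, beginning 107, 82 and 27 bases before the start, Spint1 held 3 (at 187, 172 and 58), Ccno held 2 (at 122 and 109) and Gsdme held 2 (at 13 and 7). The start given for Gsdme lies inside the span RefSeq gives the gene, so another transcript may begin upstream of this window. Of 32851 windows of this length in the table, 28.2% held at least 1 match, 8.63% at least 2 and 2.77% at least 3. A gene can have several windows, and the windows were not limited to the genes tested. Of the 12 higher genes named by the smallest p, which include the 5 called genes and Tiparp, 10 had windows. A match was held by 7 of these 10 genes and by 8 of their 11 windows. Of the 12 lower genes 10 had windows, and a match was held by 4 of these 10 genes and by 4 of their 15 windows. The base composition of the windows was not compared. A match is a short run of letters, counted here without a test, and none of these data measured binding.

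Spint1 showed the largest rise. Its probe lies on chromosome 2 at 119074929 to 119074988 (mm9, as the scanner files place it) on the Spint1 mRNA, and it was well above background on all 19 arrays. Control mice 1 to 5 read -1.72, -4.07, -3.20, -2.92 and -2.12. The 14 treated arrays ran from -2.26 through a median of -0.67 to 0.59. The groups overlapped in 1 treated array, ptaquiloside mouse 3, while 13 treated arrays lay above every control (adjusted p = 0.0186). The second probe of the gene gave 2.02 ± 0.28. With normexp the difference was 0.77, with an adjusted p of 0.218. The protease that the Spint1 protein restrains, St14 (matriptase), was chosen for mention after its value was seen: it differed by 0.50 and lay above the control of the same slide on 14 of 14 treated arrays, with an adjusted p of 0.9996.

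Ahrr was the dimmest of the 5. Its probe lies on chromosome 13 at 74348566 to 74348612 (mm9) and was well above background on 3 of 5 control and 13 of 14 treated arrays. Control mice 1 to 5 read -3.68, -5.30, -4.51, -3.83 and -3.82. The treated arrays ran from -3.90 through a median of -2.43 to -1.07 (adjusted p = 0.0212). Only ptaquiloside mouse 3, at -3.90, lay among the controls. No fold is given, since 2 control arrays were not well above background. With normexp, which adds an offset of 50 to every signal, the difference was 0.15 with an adjusted p of 0.875.

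Gsdme was measured by 1 probe, on chromosome 6 at 50157436 to 50157495 (mm9), listed under the older name Dfna5. Control mice 1 to 5 read -0.46, -1.28, -1.50, -0.80 and -0.48, and the treated arrays ran from -0.50 through 0.35 to 1.34 (adjusted p = 0.0212). The groups met at the edge, where ptaquiloside mouse 3 and selenium mouse 2 lay below the highest control and 12 treated arrays lay above it.

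Ccno and Dnah2 both belong to the machinery of motile cilia. The Ccno probe lies on chromosome 13 at 113780810 to 113780869 (mm9). Controls 1 to 5 read -0.41, -0.96, -1.68, -1.55 and -1.36 against -1.16 to 0.31, median -0.16, in treated mice (adjusted p = 0.0186). Of the 14 treated arrays 12 lay above all controls, the highest control was that of slide 1, and the 2 treated arrays among the controls were both of slide 3. With normexp the Ccno difference was 0.50 and that of Gsdme 0.81, each with an adjusted p of 0.218.

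For Dnah2 the brightest of 3 probes, on chromosome 11 at 69234323 to 69234382 (mm9), carried the call. Controls 1 to 5 read 2.60, 1.40, 1.73, 1.67 and 2.48, and treated arrays ran from 1.74 through 2.82 to 4.01 (adjusted p = 0.0212). Here 6 of 14 treated arrays lay within the range of the controls, and the separation appears within slides. The other probes of the gene differed by -0.04 and -0.04, and 1 of them was well above background on all 19 arrays. The Dnah2 value therefore stands for the brightest probe only.

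**Figure D2:**
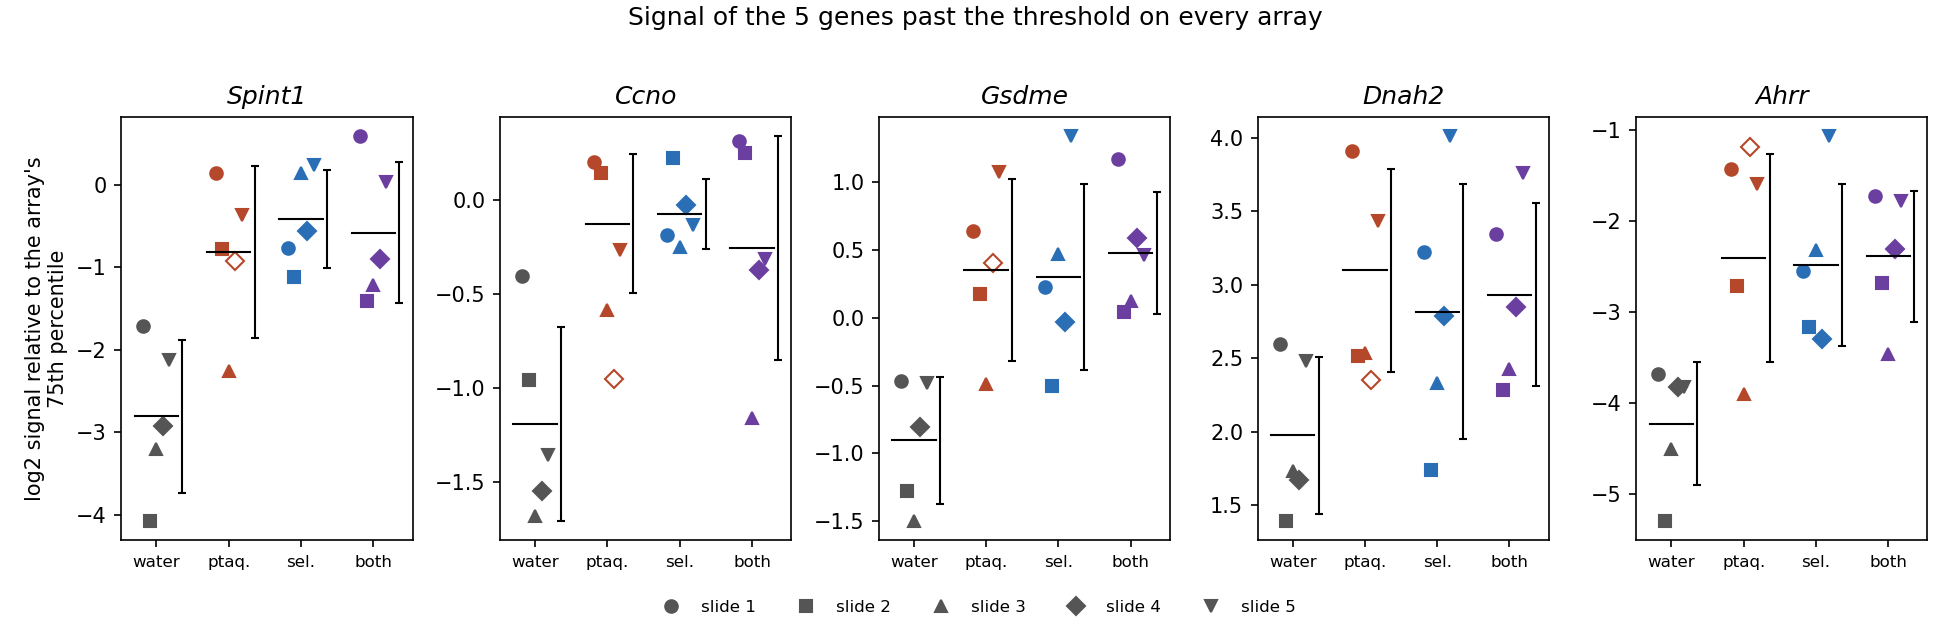
Log2 signal relative to the array's 75th percentile for the 5 genes past the threshold, with 1 point per array, marker shape for the slide, and groups of water, ptaquiloside (ptaq.), selenium (sel.) and both. Horizontal lines are group means and bars 1 SD, and the open diamond is the array of ptaquiloside mouse 4, which entered neither the means nor the tests. For Spint1 the water arrays lie between -4.07 and -1.72 and 13 of the 14 treated arrays lie above them.

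Within slides the direction was the same throughout for these genes. On all 5 slides the mean of the treated arrays exceeded the control array, by 1.70 to 2.97 for Spint1, 1.03 to 2.44 for Ahrr, 1.08 to 1.53 for Gsdme, 0.52 to 1.35 for Ccno and 0.70 to 1.26 for Dnah2. Each of the 14 treated arrays exceeded the control array of its own slide in 21 of 17203 genes (0.122%), and the 5 called genes were among the 21. In 4 genes (0.0233%) all 14 lay below it: Abhd15, Ahr, Mrgpra3 and Tm9sf4. The 14 comparisons share 5 control arrays, so these counts rest on 5 control mice. In 0 genes did all 14 treated arrays lie above all 5 controls, and in 0 did all lie below.

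The values of the 3 treatments for the 5 genes stand here side by side, against the controls they share. Spint1 differed by 1.94 with ptaquiloside, 2.39 with selenium and 2.22 with both, and Ahrr by 1.79, 1.75 and 1.84. Gsdme differed by 1.25, 1.20 and 1.38, Ccno by 1.03, 1.12 and 0.93, and Dnah2 by 1.09, 0.84 and 0.96. The test among the 3 treated groups gave unadjusted p of 0.546, 0.967, 0.756, 0.599 and 0.445 in limma's F-test for these genes in the same order. The pooled fit counts spread among the treatments as error, so the genes it calls tend to be even across them, and neither these values nor these p show separately that the treatments act alike. The SE of a single treatment's difference was 0.37 to 0.40 for Spint1. Across all genes the F-test called 0 of 17203 (0%), with 881 genes (5.12%) at an unadjusted p under 0.05.

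**Figure D3:**
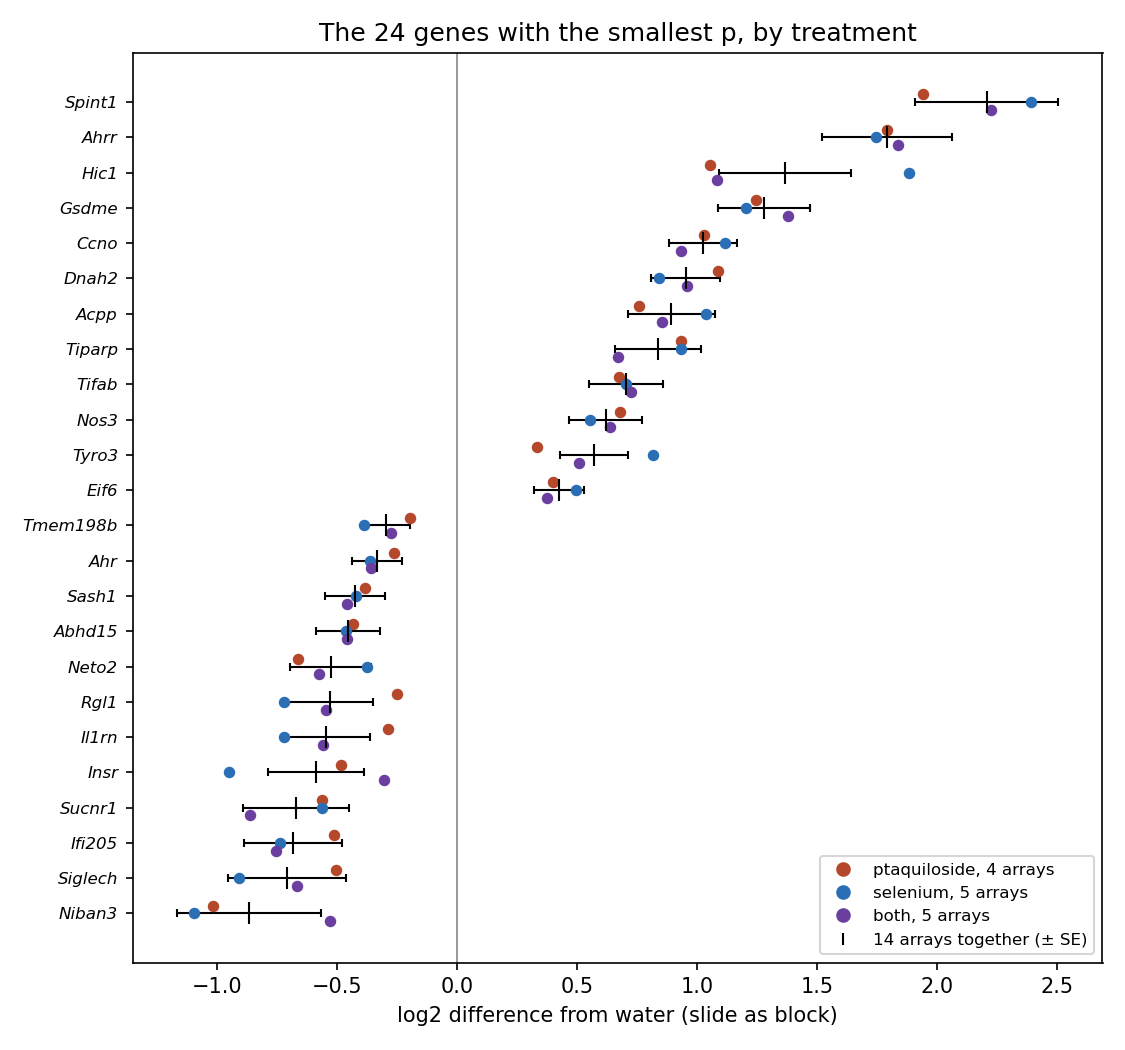
Log2 difference from water for the 24 genes named by p, 12 higher and 12 lower. They have the smallest p each way among genes well above background on 10 or more arrays and with a full gene name. Coloured points are the single treatments, and the tick with a bar of 1 SE is the 14 treated arrays together. For Spint1 the points lie at 1.94, 2.39 and 2.22, and for Hic1 the selenium point at 1.88 stands apart from 1.05 and 1.08.

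The next 7 higher genes did not pass the threshold. Hic1, a zinc finger repressor of transcription, differed by 1.37 ± 0.27 (SE, adjusted p = 0.398 in limma): controls 1 to 5 read 2.36, 1.43, 0.98, 0.20 and 0.54 and treated arrays 1.37 to 3.65, median 2.51. All 14 lay above the control of their slide and 9 above every control. By treatment Hic1 stood at 1.05 with ptaquiloside, 1.88 with selenium and 1.08 with both, and Tyro3, another gene of the 7, at 0.33, 0.82 and 0.51. Among the treatments limma's F-test gave unadjusted p of 0.0108 for Hic1 and 0.0139 for Tyro3, with an adjusted p of 0.953 for each. Acpp, an acid phosphatase, differed by 0.89 ± 0.18 (adjusted p = 0.408), and its other probes gave 0.74 and 0.92. The remaining 5 were Tiparp, Tifab (a regulator of TIFA signalling), Eif6 (a factor in assembly of the large ribosomal subunit), Nos3 (endothelial nitric oxide synthase) and Tyro3 (a receptor tyrosine kinase), at 0.42 to 0.84. With normexp Tifab, a dim probe, stood at -0.0821. For Tyro3 the treated arrays ran from -2.31 to -1.46, and 13 of 14 lay above the highest control of -2.19; its other probes gave 0.52 and 0.12.

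The 12 lower genes ranged from -0.29 for Tmem198b to -0.87 for Niban3, with an adjusted p of 0.9996 for each. Among them Il1rn, the interleukin-1 receptor antagonist, read 1.83, 2.22, 2.76, 2.78 and 1.99 in controls 1 to 5 and 1.01 to 2.43, median 2.00, in treated mice, a difference of -0.54 ± 0.18. Insr, the insulin receptor, was narrow in controls, from -3.46 to -3.15, and 12 of 14 treated arrays lay below all of them, with a difference of -0.59 ± 0.20. It was well above background on 5 of 5 control and 10 of 14 treated arrays, and its other probe gave -0.30 ± 0.30. By treatment Insr stood at -0.48 with ptaquiloside, -0.95 with selenium and -0.30 with both. Sucnr1, the succinate receptor, had 11 of 14 treated arrays below all controls and differed by -0.67 ± 0.22. Its probe was well above background on 5 of 5 control but only 5 of 14 treated arrays, so the low values lie near background. Siglech, a surface lectin of plasmacytoid dendritic cells, differed by -0.71 ± 0.25. The others were Sash1, Abhd15, Ifi205, Ahr, Neto2 and Rgl1.

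Genes of the AhR pathway were followed as a list of 12, chosen with earlier results of these data known, of which 7 were bright enough to test. One, Ahrr, passed the threshold, and 5 of the 7 had an unadjusted p under 0.05, Ahr lower and the others higher, against 1.85% of all genes. For a list chosen in this way that share does not show separately that the pathway differed. Among the feedback genes, Tiparp, an ADP-ribosyltransferase that AhR induces and that damps it, read 3.11, 2.96, 2.45, 2.41 and 2.70 in controls 1 to 5 and 2.87 to 4.30, median 3.56, in treated mice. Of the treated arrays 13 lay above all controls, and the difference was 0.84 ± 0.18 (adjusted p = 0.563 in limma). With mouse 5 of the combined treatment left out, whose Tiparp value was the lowest of the treated arrays, the fit called 6 genes, Tiparp among them. Leaving out the lowest treated value favours such a call, and no other setting called Tiparp.

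The receptor itself went the other way. Ahr read 2.12, 2.62, 2.52, 2.67 and 2.66 in controls 1 to 5 and 1.61 to 2.55, median 2.29, in treated mice, a difference of -0.33 ± 0.10 (adjusted p = 0.9996). All 14 treated arrays lay below the control of their slide, by treatment at -0.26, -0.36 and -0.36. Of other known targets, Asb2, a subunit of a ubiquitin ligase, differed by 0.56 ± 0.18. Nqo1, a quinone reductase shared with the NRF2 pathway, differed by 0.69 ± 0.25, and both had an adjusted p of 0.9996 in limma. With ptaquiloside, selenium and both, Asb2 stood at 0.55, 0.84 and 0.28 and Nqo1 at 0.44, 1.06 and 0.50. The partner Arnt, at -0.06 ± 0.16, sat near the median of all genes of 0.01. The classical target Cyp1a1 was well above background on 4 arrays and was not tested, and Cyp1a2, Cyp1b1 and Aldh3a1 were on 0 arrays. Ugt1a6a had no probe.

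**Figure D4:**
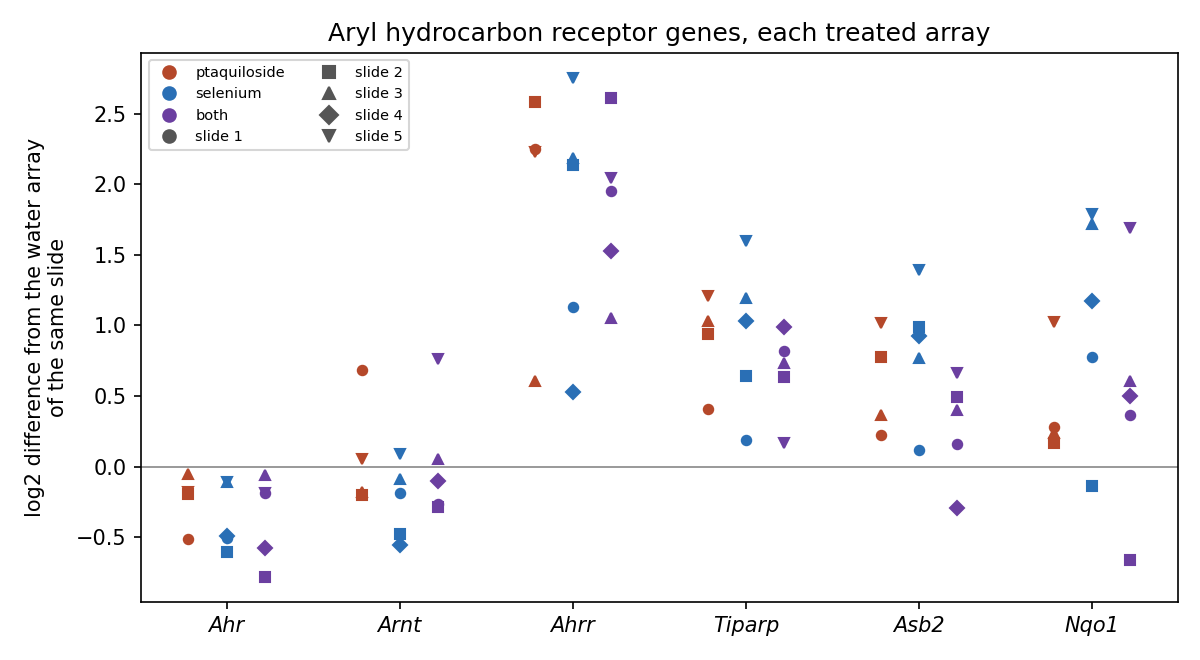
Log2 difference of each of the 14 treated arrays from the water array of the same slide for 6 genes of the AhR list, with colour for the treatment and marker shape for the slide. All points of Ahrr and Tiparp lie above 0 and all points of Ahr below 0, while those of Arnt lie on both sides.

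The metallothioneins, zinc-binding stress proteins that the series followed up as protein, did not separate. Mt1 read 5.67, 3.98, 2.59, 2.64 and 3.69 in controls 1 to 5 and 2.67 to 6.13, median 4.05, in treated mice, a difference of 0.40 ± 0.29 (unadjusted p = 0.193 in limma, adjusted 0.9996). Mt2 ran from 3.22 to 7.21 in controls and from 3.80 to 7.80 in treated mice, and differed by 0.52 ± 0.28 (unadjusted p = 0.0877, adjusted 0.9996). Both genes were widely spread within the controls, with SDs of 1.26 and 1.58, and slide 1 was high in controls and treated mice alike. By treatment Mt1 stood at 0.79 with ptaquiloside, 0.36 with selenium and 0.14 with both. The list of metallothioneins and zinc transporters had a median of 0.02 over 19 genes, 10 of them higher, and 0 called.

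Selenoproteins and antioxidant genes lay at the level of all genes. Of 28 selenoproteins and their partners 17 were higher, with a median of 0.03 in all and 0.03 with selenium alone. The glutathione peroxidase Gpx1 differed by -0.06 and the thioredoxin reductase Txnrd1 by -0.06. Of 30 NRF2 and antioxidant genes 15 were higher, with a median of -0.01. All genes tested had a median of 0.01, with 53.7% of them higher.

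The NK cell lists moved little. Of 41 receptors and adaptors 32 were higher, with a median of 0.11 and a range of -0.26 to 0.44. Klrk1, the activating receptor NKG2D, differed by 0.29 ± 0.14 on its brighter probe and by -0.0076 ± 0.18 on the other, and Cd160, another activating receptor, by 0.44 ± 0.21 but by -0.0584 with normexp. Of 20 cytotoxic effectors 13 were higher, with a median of 0.08. Ifng, the interferon of NK cells, differed by 0.34 ± 0.14 (unadjusted p = 0.0325 in limma), Prf1, perforin, by 0.18 ± 0.22, and Gzmb, granzyme B, by 0.01 ± 0.20. In these 2 lists 0 genes passed the threshold.

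Proliferation and interferon genes were mostly higher without a called member, and unevenly among treatments. The spike-in control transcripts, which do not come from the mice, were also higher in treated mice in 9 of 10, with a median of 0.27, and their part in the list medians was not tested. All 38 tested genes of the cell cycle and replication list were higher, with a median of 0.26, but by treatment the median was -0.22 with ptaquiloside, 0.59 with selenium and 0.24 with both. Of these genes 22 had an unadjusted p under 0.05 among the 3 treated groups, against 5.12% of all genes. Mki67, a proliferation antigen, differed by 0.38 (unadjusted p = 0.283 in limma). Of 38 interferon-stimulated genes 36 were higher, with a median of 0.15 and, by treatment, 0.08, 0.42 and -0.08. Usp18, a brake on interferon signalling, differed by 0.60 ± 0.27, at 0.47, 1.10 and 0.21 by treatment. The pooled value of these lists therefore averages groups that differ in sign.

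Stress lists lay slightly above the median of all genes. Of 25 heat shock genes 20 were higher, with a median of 0.11, of 25 genes of endoplasmic reticulum stress and amino acid supply 20, with 0.13, and of 30 p53 and DNA damage genes 19, with 0.05. Creld2, a chaperone-like protein of the endoplasmic reticulum, differed by 0.34 ± 0.12 and lay above the control of its slide on 14 of 14 arrays. Cdkn1a, the p53 target p21, differed by 0.32 ± 0.15. In these 3 lists 0 genes passed the threshold.

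Markers of other spleen cells differed as well, in both directions. Of 18 B cell markers 16 were lower, with a median of -0.58, and Ms4a1, the surface antigen CD20, differed by -0.80 ± 0.42 (unadjusted p = 0.0771 in limma). The summed level of the B cell list, in units of the 75th percentile, was 91.1 to 155 in controls and 50.5 to 219 in treated mice, and its median by slide ran from -1.90 to 0.79. Of 24 macrophage and monocyte markers 16 were lower, with a median of -0.23, of 16 T cell markers 12, with -0.12, and of 22 dendritic cell and MHC class II genes 16, with -0.08. Of 19 neutrophil markers 11 were higher, a share near that of all genes. Their median was 0.29, at -0.36 with ptaquiloside, 0.52 with selenium and 0.42 with both. These markers did not move together: Camp and Mpo stood at 0.44 and 0.42, Mmp9 and Csf3r at -0.39 and -0.36. None of the markers in these lists passed the threshold. On slide 3, where the B cell median was 0.79 higher in treated mice than in the control, Spint1 was 2.09 higher, Gsdme 1.53, Ahrr 1.28, Ccno 1.02 and Dnah2 0.70. These values rest on 1 control mouse. Of the 5 slides this one had the lowest difference for Dnah2 and the highest for Gsdme. The part of the B cell and other marker lists in the 5 differences was not tested.

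**Figure D5:**
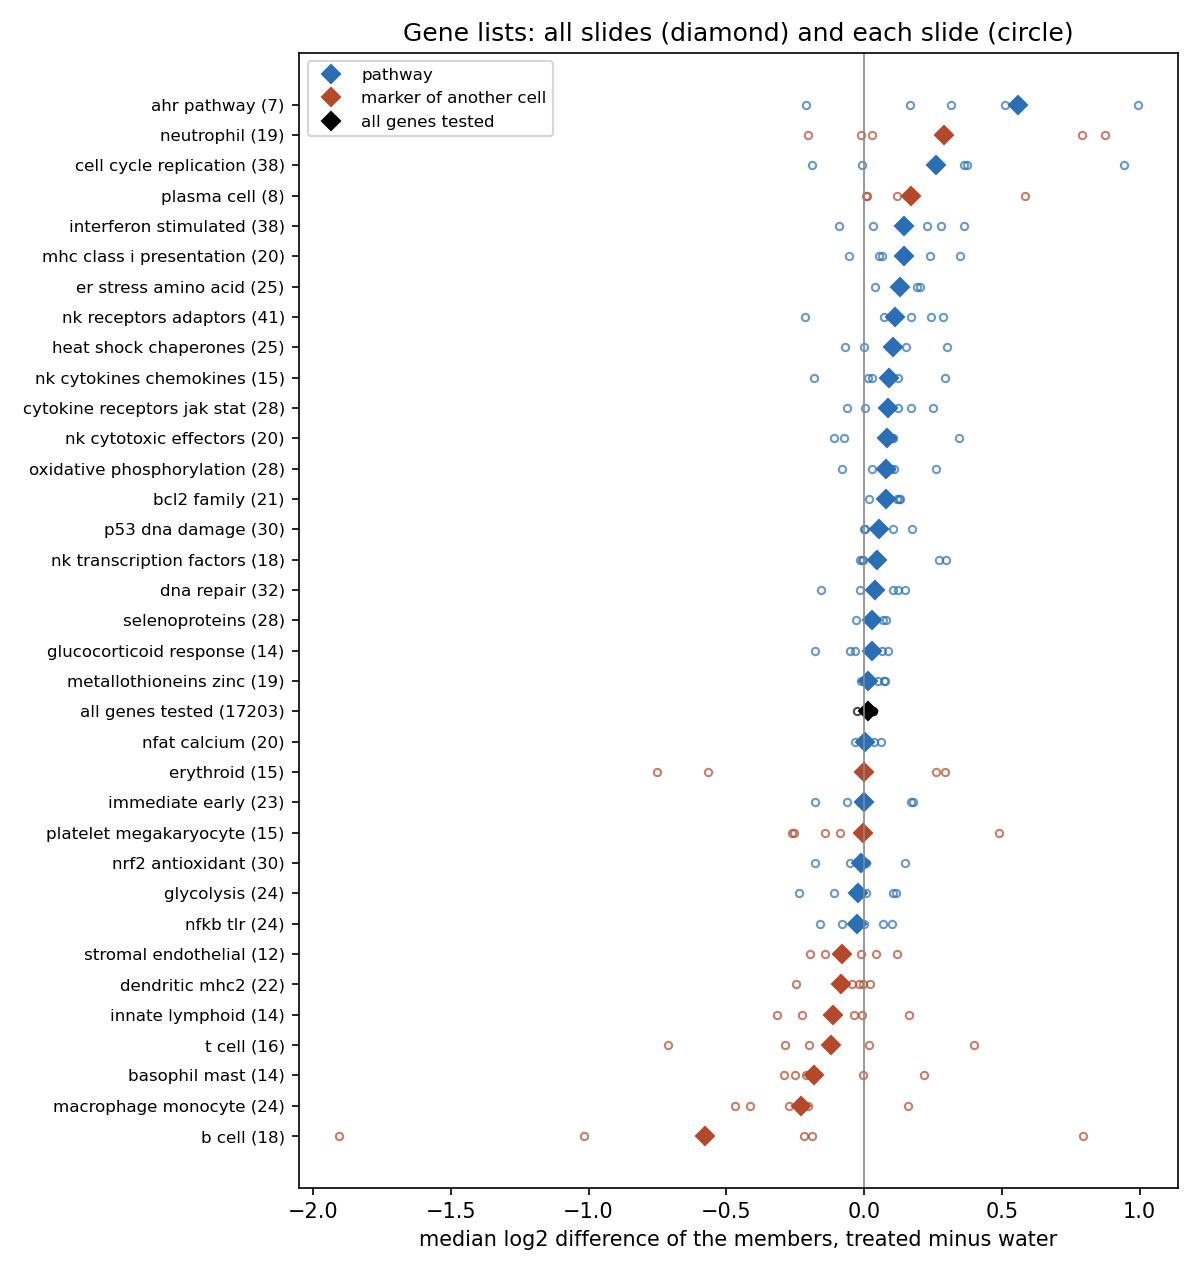
Median log2 difference between treated and control mice over the tested members of each gene list (diamond) and on each of the 5 slides (open circles), with the number of tested members in brackets. The AhR list, like the others chosen with earlier results of these data known, lies highest at 0.56. The B cell list lies lowest at -0.58 with slides from -1.90 to 0.79, while all genes tested lie at 0.01.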

How the data were processed

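Gene expression was measured on 20 single-colour Agilent arrays, 1 mouse each. The deposited scanner output is intensity per spot, extracted with Agilent Feature Extraction 9.5.3.1 per the submitters' processing notes. Its processed signal has the background subtracted, per the file headers, with no scaling between arrays. The deposited flag columns, of unit other, mark control, outlier, saturated and well-above-background spots. A deposited table of log2 values was not used, because its header says that a control and a ptaquiloside array were replaced by means. Here each log2 processed signal was expressed relative to the 75th percentile of its array's non-control spots. Outlier spots were dropped, replicate spots averaged and the brightest probe taken per gene, among probes that stood well above background on 5 or more of the 20 arrays. Of 41174 probes 25097 were named by accession, 6333 by symbol and 1640 by synonym in RefSeq's list of genes, and 8104 kept the file's name. Coordinates of probes are mm9, and no exon or UTR annotation was used. The 14 treated arrays were compared with 5 controls in R 4.3.3 by limma 3.58.1 (data.table, version 1.17.8, and statmod 1.5.0), with the slide as a fixed block, using moderated variances and two-sided p-values adjusted by Benjamini-Hochberg, at 0.05. The F-test among the treated groups used the same arrays with 1 mean per group.

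The replicate number is the slide per the file headers. Over 27 pairs of arrays of the same number, deviations from the group means correlated at -0.344 to 0.712 (median 0.435, against -0.148 for other numbers), and 13 of 19 arrays correlated best with an array of their own number. The block is therefore a pairing by slide, and p-values measure the spread between mice that remains after it.

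Named genes were those past the threshold, then the smallest p until 12 each way were reached (among probes above background on 10 or more of 19 arrays and with a full gene name), Mt1 and Mt2, and for each list described at most 3 members. Klrb1c, Prf1, Gzmb, Gpx1, Txnrd1, Mki67, St14, Notch1 and the neighbours of called genes fall outside this rule and were added after their values were seen. The comparison, members, lists and rules were chosen with earlier results of these data known. Some single-gene values are not reported here. The script was tested on simulated data. Alternatives covered the block, background correction, scaling, filter, probe choice, outlier spots, the left-out array and omission of each array or slide.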

Additional observations from a re-analysis of the deposited data

Results flagged for a closer look

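In 3 of the 68 genes named, 1 control array lay far from the other 4, by the gap to its neighbour as a share of the whole range. Chance alone sets such a mark in about 1 of 20 groups. For Ahr the share was 0.724, with control 1 at 2.12 and the others at 2.52 to 2.67. For Lrp8, the receptor that takes up selenoprotein P, it was 0.746, with control 2 at -3.83 against -2.74 to -2.37. For Dhx58, an interferon-stimulated sensor of viral RNA, it was 0.952, with control 2 at 0.55 against -0.15 to -0.11.

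For Elane, neutrophil elastase, the difference from water had opposite signs by treatment. It was -0.36 ± 0.39 (SE) with ptaquiloside, 1.01 ± 0.36 with selenium and 0.51 ± 0.36 with both. All 4 ptaquiloside arrays lay below the control of their slide and all 5 arrays of both compounds above it, some narrowly. On slide 3 ptaquiloside read -0.62 against -0.59, and on slide 2 both compounds read 0.34 against 0.33. Selenium mouse 5, at -0.80, lay below its control at -0.51, while the other selenium arrays lay above theirs. The F-test of limma among the treated groups gave an unadjusted p of 0.0116 and an adjusted p of 0.953.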

How the results depend on the processing

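Of 5 genes called with the slide as a block, 0 were called without the replicate block, 3 with the slide as a random block (Spint1, Ccno and Gsdme), and 1 (Spint1) with the dim ptaquiloside array kept. Normexp background correction gave 0 (lowest adjusted p 0.218), median centring 1, no scaling 0 (lowest adjusted p 0.227), and equal weight to the 3 treatments 0 (lowest adjusted p 0.058). Quantile normalization, no filter, a filter of 15 arrays and keeping outlier spots gave the same 5 genes, and testing all probes gave 6 probes of these 5 genes. Leaving out 1 array gave 0 to 6 calls: 0 without control 2, 3, 4 or 5, 2 without control 1, 2 without mouse 4 of both compounds, 4 without its mouse 1 or selenium mouse 4, and 6 without its mouse 5. A slide without its control adds nothing to the difference under the block. Leaving out a whole slide gave 1, 0, 1, 0 and 0 calls for slides 1 to 5. The 5 genes kept their direction in every setting, with Spint1 at 0.77 to 2.34 and Ahrr at 0.15 to 1.96. The F-test among treatments called 0 genes throughout, except 1 without ptaquiloside mouse 5 and 1 without slide 5.

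Of the other genes named, 5 changed sign under 1 setting: Gzma at -0.0332 with the dim array kept, Tifab at -0.0821, Cd160 at -0.0584 and Lrp8 at -0.0350 with normexp, and Sod1 at -0.0076 with no scaling, where the median of all genes moved to -0.14. The cause was not tested. Of the list medians, 34 values moved by more than the spread between slides. Probes near background, Ahrr and Tifab among them, limit what these arrays can resolve, and 5 control mice limit every difference.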

Other observations

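Genes near the 5 called ones were counted too. Of 115 tested genes with a probe within 500 kb of a called probe on mm9, a window chosen after the data were seen, 72 were higher and 43 lower (62.6% higher, against 53.7% of all genes). Around Ahrr 8 were higher and 8 lower. An unadjusted p under 0.05 in limma was reached by 5 of them, against 1.85% of all genes, and all 5 were higher. Zfyve19, at 0.31 ± 0.10 (SE), and Dnajc17, at 0.31 ± 0.11, lie 32 and 77 kb from the Spint1 probe, and both exceeded the control of their slide on 14 of 14 arrays. Exoc3, at 0.37 ± 0.12, lies 41 kb from the Ahrr probe, Osbpl3, at 0.27 ± 0.12, lies 89 kb from that of Gsdme, and Cntrob, at 0.28 ± 0.12, lies 121 kb from that of Dnah2. Each had an adjusted p of 0.9996.

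Notch1, the receptor of lymphocyte fate decisions, was chosen after its value was seen: it was 0.46 higher and exceeded the control of its slide on all 14 arrays, with an adjusted p of 0.9996. All 20 tested genes of MHC class I presentation were higher, with a median of 0.14, and 22 of 28 genes of oxidative phosphorylation, with a median of 0.08, without a called gene in either list. The share of all genes that were higher is given above. In the MHC list the lowest unadjusted p in limma was 0.0697, for Psmb9, and single treatments put some members below water. The 10 spike-in transcripts differed by -0.01 to 0.30 between treated and control arrays, with 9 higher in treated mice and a median of 0.27, and by slide from -0.53 to 1.17. Their part in these list medians was not tested.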
